A study of Mus musculus with 10 samples.

Results

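The matrix of cartilage also holds proteins other than collagen. Here, 9 genes of this kind were followed in mouse embryos: *Acan*, *Hapln1*, *Matn1*, *Matn2*, *Matn3*, *Matn4*, *Comp*, *Chad* and *Ucma*. They were chosen by gene symbol out of 24302 genes, at a time when changes of such genes between the genotypes of these embryos were already known. All 9 were found, all had a mean above 0, and none was removed by a filter. RNA came from C57BL/6 embryos at embryonic day 11.5, of which 3 were wildtype, 3 heterozygous (WWC2-/+) and 4 homozygous (WWC2-/-) for a deletion of *Wwc2*. *Wwc2* encodes an upstream component of the Hippo pathway. In the study, the floxed gene was deleted with a *Zp3*-driven Cre recombinase, which acts in growing oocytes. The paper used this cross to remove maternal as well as zygotic expression. Only the homozygous embryos lack both copies of the gene. Whole embryos were homogenized, and the level of a gene is therefore an average over all tissues, in which few expressing cells and little RNA per cell cannot be told apart.

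The measurement used is the authors' mean normalized count, which is the reads of a gene divided by the size factor of the library and averaged over the embryos. The mean was equal in both deposited tables for 24302 genes, within a relative difference of 1e-06, so one average over the 10 embryos stands behind both. It pools the 3 genotypes. Values per embryo were not used here, and neither were the columns of the authors' own comparisons, so no spread between embryos, no test and no difference between genotypes is given for any gene. Where levels of 2 genes are set side by side below, their ratio is a description of the average, and whether neighbors in the order differ beyond the variation between embryos cannot be said.

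Aggrecan, encoded by *Acan*, is the large proteoglycan of cartilage. Its many chondroitin sulfate chains hold water, and it binds hyaluronan through a complex that the link protein of *Hapln1* stabilizes. Matrilins are adaptor proteins that connect collagen fibrils with proteoglycans. *Matn1* and *Matn3* are known mainly from cartilage, while *Matn2* and *Matn4* are also made in many other tissues. *Comp* encodes a member of the thrombospondin family that binds collagen fibrils, *Chad* encodes chondroadherin, a leucine-rich protein that binds cells and collagen, and *Ucma* encodes a small vitamin K-dependent protein of the growth cartilage. At this stage of normal development, mesenchyme condenses into the first cartilage templates of the skeleton, and most cartilage matrix is laid down later. The paper describes the homozygous embryos, 4 of the 10 in the mean, as growth retarded and less developed. The levels below are therefore not those of normal embryos alone.

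The sequences around the transcription start differed widely in their CpG content, and the stretches before 3 starts are shown. *Acan* and *Hapln1* had the highest and the lowest CpG ratio over the 300 bases described below. *Chad* had the only start with a TATA motif. Each line holds 100 bases that end directly before the start in RefSeq (build GRCm38.p6, plus strand, 5′ to 3′), with every CpG and the motif TATAAA in capitals. That of *Acan* is at chr7:79053126-79053225, that of *Chad* at chr11:94564947-94565046 and that of *Hapln1* at chr13:89540536-89540635.

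Acan: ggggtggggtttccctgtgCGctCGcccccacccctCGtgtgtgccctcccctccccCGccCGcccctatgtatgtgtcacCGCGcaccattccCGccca

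Chad: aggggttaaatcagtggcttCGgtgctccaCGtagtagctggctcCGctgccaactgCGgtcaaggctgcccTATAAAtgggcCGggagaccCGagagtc

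Hapln1: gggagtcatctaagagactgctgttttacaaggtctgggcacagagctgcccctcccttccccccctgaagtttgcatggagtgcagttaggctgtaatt

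These stretches held 8 CpG in *Acan*, 6 in *Chad* and 0 in *Hapln1*. RefSeq promoters, each reaching from 250 bases before to 50 bases after a start, were matched for 7 of the 9 genes, with 8 starts because *Matn4* has 2. *Matn2* and *Comp* had no entry. Over these 300 bases, the ratio of observed to expected CpG was 0.795 in *Acan*, at the 78.7th percentile of 32841 promoters of the same length, and 0.136 in *Hapln1*, at the 18.9th percentile. The median of all promoters was 0.384. Below *Acan* in this order were the starts of *Matn4*, with ratios of 0.619 and 0.438, *Matn3* with 0.511 and *Chad* with 0.473. *Matn1* and *Ucma* had 0.216 and 0.177 and lay with *Hapln1* under the median. Of these 7 genes, *Hapln1* had the lowest CpG ratio and, as described next, the highest level. Whether CpG content and level are related was not tested. In the GENCODE annotation, which gave the lengths used below, *Hapln1* begins at 89539796, so its RefSeq window lies inside that gene. *Acan* begins at 79053483 there, so its RefSeq window, which ends at 79053275, lies before that gene. The motif TATAAA, searched on both strands, was found in 1 of the 7 genes, *Chad*, where it starts 28 bases before the transcript, and 13.6% of all promoters hold it. AACAAT, the core bound by SOX proteins, was searched in the same way and found in 0 of the 7 genes and in 10.7% of all promoters. An absent match says only that these letters are not in this window.

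*Hapln1* was by far the most abundant of these transcripts. *Hapln1* (ENSMUSG00000021613, chromosome 13 of GRCm38, 89539796 to 89611652) had a mean normalized count of 1875 per embryo, which was 63.4% of the counts of all 9 genes together. This value lay at the 82.4th percentile of the 20665 genes with a mean above 0. *Acan* itself (ENSMUSG00000030607, chromosome 7, 79053483 to 79115099) had a mean of 184 and lay at the 44.4th percentile. Aggrecan mRNA is long, with 7469 exonic bases, against 5902 bases for *Hapln1*. Per kilobase of exon, the mean normalized count was 318 for *Hapln1* and 24.6 for *Acan*. The transcript of the link protein was thus 12.9 times as abundant as that of aggrecan, and no protein was measured. Per kilobase of coding sequence, the ratio was 62.1, because only 1068 of the exonic bases of *Hapln1* are coding. The same counts were divided by both lengths, so the larger ratio comes from the length and not from more reads. The direction was the same on both scales.

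The matrilins followed, and the widely expressed members stood above those known from cartilage. *Matn4* (ENSMUSG00000016995, chromosome 2, 164389393 to 164405160, minus strand) had a mean normalized count of 398, at the 53.7th percentile of all genes. *Matn2* (ENSMUSG00000022324, chromosome 15, 34306677 to 34436273) had 318, at the 50.5th percentile. Both were close to the median of all genes, which was 307. *Matn3* (ENSMUSG00000020583, chromosome 12, 8947929 to 8972028) had a mean of 85.3 and *Matn1* (ENSMUSG00000040533, chromosome 4, 130944385 to 130955475) one of 44.9. Per kilobase of exon, the levels were 77.0 for *Matn4*, 50.7 for *Matn2*, 28.3 for *Matn3* and 22.5 for *Matn1*. *Matn4* thus made up 43.1% of the matrilin level, *Matn2* 28.4%, *Matn3* 15.9% and *Matn1* 12.6%. With coding length, the share of *Matn4* was 52.5% and that of *Matn1* 7.40%, and the order of the 4 genes was the same. These shares belong to the average over all genotypes and need not hold within any one of them. *Matn1* lay beside *Acan* on both scales. The ratio of *Acan* to *Matn1* was 1.10 per kilobase of exon and 0.943 per kilobase of coding sequence, so the order of this pair depends on the length used.

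The lowest levels belonged to *Comp*, *Chad* and *Ucma*. *Comp* (ENSMUSG00000031849, chromosome 8, 70373558 to 70382066) had a mean normalized count of 26.0 and *Chad* (ENSMUSG00000039084, chromosome 11, 94565047 to 94569127) one of 22.7. They lay at the 29.5th and 28.5th percentile of all genes. *Chad* is the shorter gene, with 1680 exonic bases against 2967 in *Comp*, and its level per kilobase of exon was the higher one, with 13.5 against 8.75. *Ucma* (ENSMUSG00000026668, chromosome 2, 4976122 to 4985748) was counted with few reads. Its mean of 3.69 corresponds to 36.9 normalized reads summed over the 10 embryos, at the 17.4th percentile, and its level per kilobase of exon was 4.17. From *Hapln1* down to *Ucma*, the levels per kilobase of exon spanned a factor of 76.2, and per kilobase of coding sequence one of 197. The other 7 genes lay within a factor of 8.79 per kilobase of exon.

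**Figure D1:**
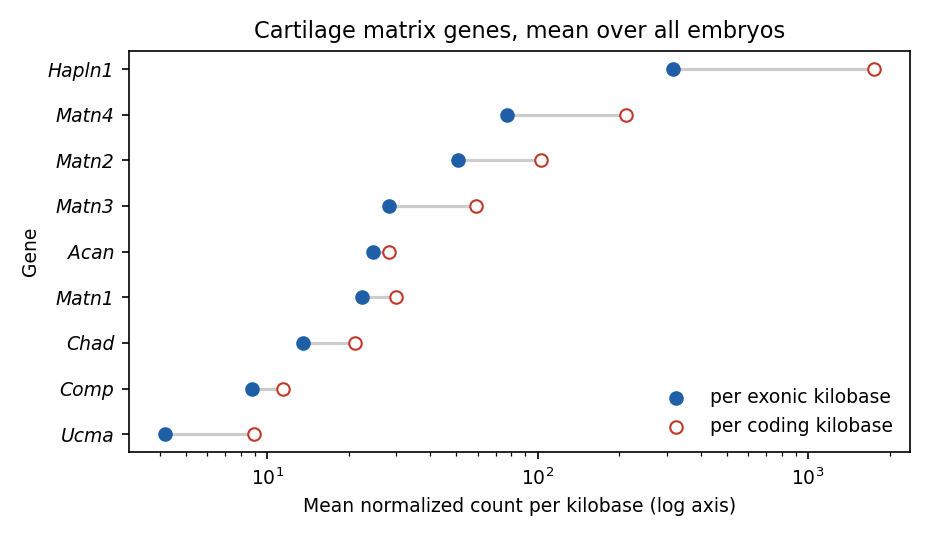
Mean normalized count per kilobase (x axis, log scale) of the 9 cartilage matrix genes (y axis), averaged by the authors over all embryos, with exonic length as filled blue points and coding length as open red points. *Hapln1* is highest on both scales, with 318 and 1756, *Ucma* is lowest, with 4.17 and 8.91, and only *Acan* and *Matn1* change places.

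Against all genes of the embryo, most of these transcripts were scarce. Of the 9 genes, 3 were above the median mean normalized count of all genes, namely *Hapln1*, *Matn4* and *Matn2*. Per kilobase of exon, only *Hapln1* was above the median of 78.4 over 19443 genes, and *Matn4* with 77.0 lay just under it. Together, the 9 genes had 2957 normalized counts per embryo, which was 0.0116% of the sum of all means, 2.56e+07. Ranked per kilobase, *Comp* lay at percentile 26.7, *Acan* at 36.1 and *Hapln1* at 77.2.

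**Figure D2:**
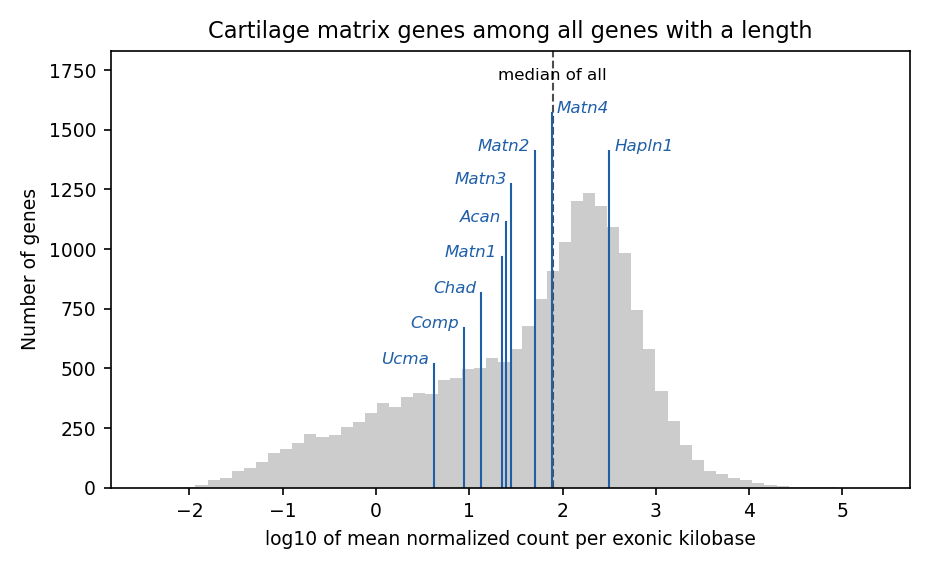
Distribution of the mean normalized count per exonic kilobase (x axis, log10) over 19443 genes (gray bars, y axis: number of genes), with the 9 cartilage matrix genes as blue lines whose heights have no meaning. Of these lines, 8 lie to the left of the dashed median of all genes, *Matn4* directly beside it, and *Hapln1* lies to the right.

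Within their own families, *Hapln1* made up most of the level, whereas *Acan*, *Comp* and *Ucma* were minor members. *Matn4* led the matrilins without such a distance, and *Chad* was nearly level with its relative. Among the 4 link protein genes, *Hapln1* made up 90.9% of the level per kilobase of exon. *Hapln3*, a link protein of many tissues, had 27.0 per kilobase, and the brain link proteins *Hapln4* and *Hapln2* had 4.27 and 0.524. Among the lecticans, the hyaluronan-binding proteoglycans, *Acan* contributed 2.21%. *Vcan*, which encodes versican, the lectican of loose embryonic connective tissue and of the heart, was 32.4 times as abundant as *Acan*, with 799 per kilobase of exon. *Ncan*, which encodes neurocan of the nervous system, had 289, and only *Bcan*, brevican of the later brain, was under *Acan* with 3.16. *Vcan* was 2.51 times as abundant as *Hapln1* per kilobase of exon but had 0.645 of its level per kilobase of coding sequence. The order of these 2 genes thus depends on the length used. Coding length, by which the same whole-gene counts were divided, raised *Hapln1* from 318 to 1756 and *Vcan* only from 799 to 1132.

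*Comp* was the lowest of the 5 thrombospondin genes and made up 0.671% of the level of the family. *Thbs1*, which encodes a matricellular protein of vessels, platelets and many other cells, had 954 per kilobase of exon and was 109 times as abundant as *Comp*. *Thbs3*, *Thbs2* and *Thbs4* lay between them with 186, 80 and 75.8. *Chad* and its relative *Chadl*, which encodes a chondroadherin-like inhibitor of collagen fibril formation, were nearly level, with 13.5 and 12.7 per kilobase of exon. With coding length *Chadl* was the higher one, 29.8 against 21.1. *Ucma* had 2.21% of the level of 3 genes for vitamin K-dependent matrix proteins. *Mgp*, matrix Gla protein, an inhibitor of calcification in cartilage and vessels, was 43.7 times as abundant with 182 per kilobase of exon, and 77.8 times per kilobase of coding sequence, where the share of *Ucma* was 1.26%. *Bglap*, osteocalcin of bone, was lower than *Ucma* with 2.23 per kilobase of exon. *Bglap* has near-identical neighboring copies that may share its reads, so its value is uncertain.

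The leading genes of early cartilage, *Sox9* and *Col2a1*, were more abundant than each of the 9 genes, per kilobase of exon as well as of coding sequence. All these levels are averages over the whole embryo, so their ratios are not ratios within cartilage cells. *Sox9*, the transcription factor that sets up the cartilage lineage, had a mean normalized count of 2870 and 694 per kilobase of exon. Its level per kilobase of coding sequence was 1887, close to the 1756 of *Hapln1*. *Col2a1*, the main collagen of cartilage and also a gene of notochord and other embryonic tissues, had a mean of 16554 and 1791 per kilobase. *Col2a1* was 5.64 times as abundant as *Hapln1* per kilobase of exon, 23.3 times as abundant as *Matn4*, 72.7 times as abundant as *Acan*, 79.8 times as abundant as *Matn1* and 429 times as abundant as *Ucma*. Per kilobase of coding sequence, these ratios were 2.11 for *Hapln1*, 17.5 for *Matn4*, 131 for *Acan*, 124 for *Matn1* and 416 for *Ucma*. Of 8 cartilage collagens, 6 were above the median of all genes per kilobase of exon. The lowest of them was *Col10a1*, the collagen of hypertrophic cartilage, with 0.855. It lay below *Ucma*. Of 9 small leucine-rich proteoglycans, 5 were above that median, from *Aspn* with 14.1 to *Lum* with 989. Among 6 transcription factors of cartilage, 1, *Sox9*, was above it, and *Runx3* was the lowest with 20.6. Per kilobase of coding sequence, where the median of all genes was 296, *Sox5* (308) and *Sox6* (459) were above as well, which makes 3 of 6, and 5 of the 8 collagens were.

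Transcripts of most enzymes that build the sugar chains of aggrecan were more abundant than the transcript of aggrecan itself. Per kilobase of exon 13 of 16, and per kilobase of coding sequence all 16, lay above *Acan*. Of 16 genes for the synthesis and sulfation of chondroitin sulfate, 9 were above the median of all genes, and their median level was 150 per kilobase of exon, against 24.6 for *Acan*. The highest was *Chsy1*, a chondroitin synthase, with 579, and the lowest *Chsy3* with 19.7. These enzymes also serve versican and other proteoglycans. Hyaluronan, to which aggrecan and the link protein bind, is made by 3 synthases, of which *Has2* had 111 per kilobase of exon and *Has1* 2.51. Proteases of the cartilage matrix, among them enzymes that cut aggrecan, ranged from *Adamts1* with 311 to *Mmp13* with 1.02. Among 5 other cartilage matrix genes, all with a mean above 0, none of the 4 with a length reached the median of all genes. The highest of these 4 was *Fbln7*, with 30.5, and the lowest was 3110079O15Rik, an older symbol of *Snorc*, with 2.56. The remaining gene, *Lect1*, an older symbol of *Cnmd*, had a mean of 204 and no length.

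**Figure D3:**
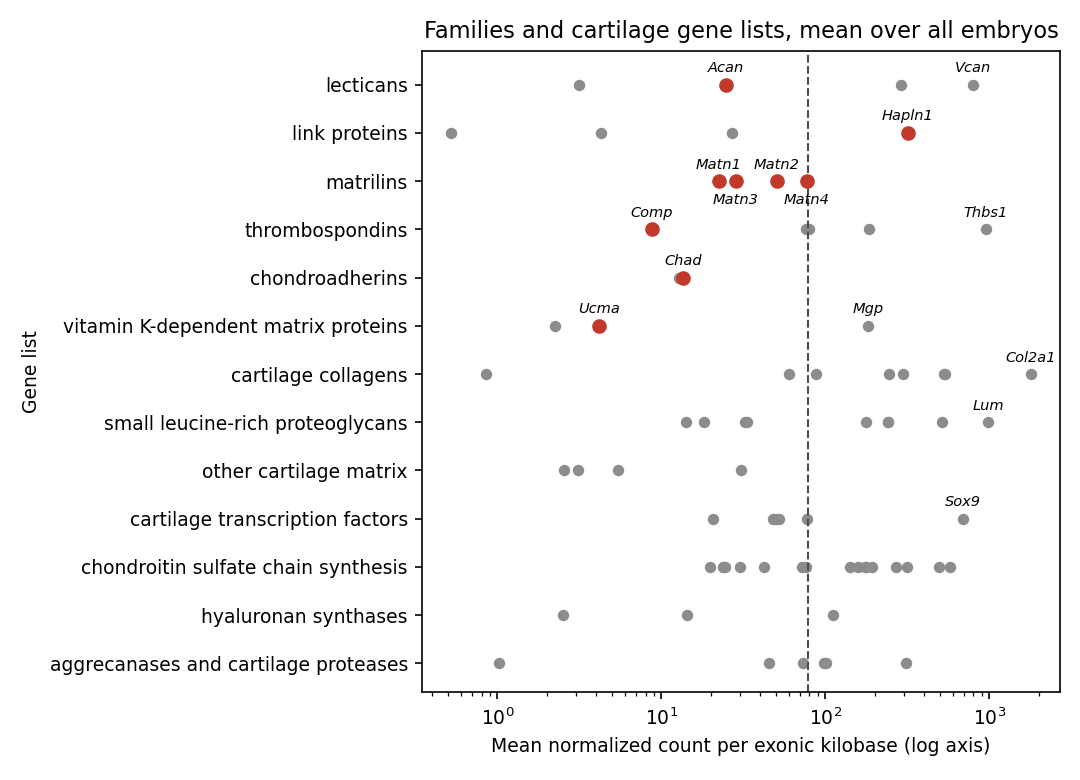
Mean normalized count per exonic kilobase (x axis, log scale) of the genes of 13 families and cartilage gene lists (y axis), averaged by the authors over all embryos, with the 9 cartilage matrix genes in red, other genes in gray and the median of all genes as a dashed line. *Hapln1* leads the link proteins, while *Acan* is 32.4 times below *Vcan*, *Comp* 109 times below *Thbs1* and *Ucma* 43.7 times below *Mgp*, ratios that are 40.1, 144 and 77.8 with coding length.

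The sample label, whole embryo, was compared with marker genes of several tissues. Embryonic globins were the most abundant markers, with a mean normalized count of 136056 for *Hbb-y* and of 72665 for *Hba-x*. Neuronal transcripts (*Tubb3*, 10914, and *Elavl3*, 2880), cardiac transcripts (*Tnnt2*, 2283, and *Myh6*, 1958) and liver transcripts (*Afp*, 24242, and *Alb*, 3454) were all present. *Tpbpa*, a trophoblast gene that the embryo proper is not known to express, had a mean of 6932, and *Prl3d1*, another such gene, one of 324. Since the mean pools all embryos, it does not show which libraries carried these transcripts, and their part in the levels of the cartilage genes was not tested. All 6 cartilage markers had means above 0, from 44.9 for *Matn1* to 16554 for *Col2a1*.

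Most of these genes shared no exact stretch of read length with annotated transcripts of other genes. Inexact matches and sequence outside annotated transcripts were not searched. No stretch of 80 bases, the read length of the study, in the annotated transcripts of *Acan*, *Hapln1*, *Matn1*, *Matn2*, *Matn3*, *Comp*, *Chad* or *Ucma* occurred in a transcript of another gene on either strand. For *Matn4*, 45 of 5247 such stretches (0.858%) were shared with *Rbpjl*, a neighbor on the opposite strand with 149 overlapping exonic bases and a mean normalized count of 1.56. *Matn2* overlaps 70 exonic bases of the gene 9430069I07Rik on the opposite strand, which had a mean of 0.293. *Chad* lies within the span of *Acsf2* on the opposite strand, with a mean of 743 for *Acsf2*, but the exons of both genes share 0 bases. The pseudogene *Gm8546* lies within the span of *Hapln1* on the opposite strand, also with 0 shared exonic bases. Reads from unspliced *Acsf2* RNA would be told apart only by strand. The methods of the study name a directional library kit, but whether the counting used the strand is not given in the sources used here, so the low count of *Chad* is less certain than its lack of shared exons implies. The annotation gives *Matn1*, *Matn3* and *Chad* 1 transcript each, *Acan* and *Hapln1* 2, *Comp* 4, *Matn4* and *Ucma* 5 and *Matn2* 6, and the gene counts do not separate them.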

How the data were processed

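RNA of 10 embryos was sequenced by the authors from poly(A) libraries, directional ones according to the study's methods. Per the submitters' processing notes and the study's methods, reads were trimmed with Trimmomatic (version 0.33), aligned to mm10 with HISAT2, counted per gene with HTSeq and analyzed with DESeq2. Of the 2 deposited tables, the authors' mean normalized count, a signal over the pooled embryos, was used. The other columns hold the log2 fold change, its standard error, a statistic, the p-value and the adjusted p-value of the authors' comparisons and were not used. The deposited tables give no depth per library beyond the sum of the means, 2.56e+07.

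Means were divided by the exonic (union) length in GENCODE release M21 (GRCm38), matched by Ensembl identifier for 22770 genes. Coding length was the alternative. It divided the same gene counts, which were not limited to coding sequence, so genes with much non-coding exon rose most. Percentiles count genes with a mean above 0, and functions were tested on simulated data. The test planned for counts per embryo had no counts to run on. Every member and every gene of its families is named, and of other lists the highest and lowest gene with a length, *Col2a1* and *Sox9*. *Cnmd*, which has no length, the tissue markers and genes that overlap a member are named as well. The members and lists were chosen with earlier results of these data known. Python 3.11.15 was used.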

Additional observations from a re-analysis of the deposited data

How the results depend on the processing

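The mean normalized counts of the 9 genes were the same, to 3 significant digits, in both deposited tables. The median over the 9 genes was 24.6 per kilobase of exon and 30.0 per kilobase of coding sequence, an alternative added after the data were seen in place of lengths from RefSeq proteins, which were not used here. Coding length raised all 9 values, by factors between 1.15 and 5.53, and only *Acan* and *Matn1* changed places. The median percentile over the 9 genes was 37.8 among all genes with a mean above 0, 23.5 among the 15909 genes with a mean of at least 10 (8 genes, without *Ucma*) and 36.1 when genes were ranked per kilobase of exon. In that last ranking 6 genes moved down and 3 up. No paired analysis was possible because the values used are means over all embryos, which carry no replicate numbers, and for the same reason no embryo could be left out. The edgeR test planned for counts per embryo was not run, and neither were DESeq2, a filter on low counts or a block on replicates. A pooled mean cannot show a level that differs between genotypes, and at 36.9 normalized reads in all, the level of *Ucma* is the least precise.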
